A study of Mus musculus with 12 samples.

Results

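The genes described here encode the proteasome, the barrel-shaped protease that degrades ubiquitin-tagged proteins, with its interferon-inducible form, the immunoproteasome. Members were the protein-coding genes of the deposited count table whose mouse symbol begins with Psma, Psmb, Psmc, Psmd, Psme, Psmf or Psmg. The annotation held 50 such genes, and 49 were among the 12483 genes of the table. The other, Psmb11, which encodes a catalytic subunit of thymus epithelium, was not analysed here. All 49 passed the filter on low counts, beside 12231 genes tested in all. They divided by role into 3 inducible catalytic subunits and 2 inducible activator subunits (together the 5 immunoproteasome genes), 14 constitutive subunits of the 20S core, 17 subunits of the 19S regulatory particle, and 13 others. The others were 4 core assembly chaperones, 3 chaperones of the regulatory particle, 2 other activators, 1 inhibitor and the testis subunit Psma8. The last 2 were Psme2b, a near copy of Psme2, and Psmc3ip, which shares a symbol stem only.

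In the core particle, rings of alpha subunits gate the entrance and rings of beta subunits hold the active sites. The 19S particle, built of a base with ATPases and a lid, recognises, deubiquitinates and unfolds substrates. Interferon gamma is known to induce Psmb9, Psmb10 and Psmb8, whose products take the places of the constitutive catalytic subunits Psmb6, Psmb7 and Psmb5 in newly assembled cores, and Psme1 and Psme2, which form the PA28 activator ring. Macrophages use the inducible form when they produce peptides for MHC class I.

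RNA was sequenced from Raw 264.7 cells, a mouse macrophage line, grown as clones of single cells. Per the labels' protocol, which is the same for all libraries, deletions were made by transfecting a pair of CRISPR constructs directed at the regions flanking an element named NRE1. The 4 groups of 3 libraries were wild-type clones 1, 2 and 3 (WT) and clones 1A, 1B and 2 with the deletion (KO), each in media alone or stimulated for 6 h with both LPS (10 ng/mL), which Toll-like receptors sense, and IFN-gamma (50 ng/mL). The agents were given together in every stimulated library, so the effects of the agents cannot be told apart. The labels do not say what NRE1 stands for, whether WT clones went through that step, or how KO 1A and 1B are related, and no targeted gene could be read. Total counts ran from 10624591 to 14388590 per library. KO 1A and 1B resembled each other more than any other pair of one group (chi-square per degree of freedom 6.63 in media and 4.70 under stimulation, against 25.2 to 77.2 for the other pairs), and differed by more than sampling noise. All 10 macrophage markers examined were measured, and of 24 markers of other cell types only S100a8 was, at a mean of at most 1.74 CPM. Of the 10 macrophage markers, 1 was called between genotypes in media, as lower in KO clones (0.858% of all genes were), and 0 under stimulation. Estimates were below 0 for 8 in each condition, with medians of -0.70 in media and -0.69 under stimulation and lowest values of -3.81 and -2.94. More than 2-fold lower in KO clones were 5 of the 10 in media and 3 under stimulation, against 663 and 844 of 12231 genes tested. The called one was Itgam, with a mean of 74.0 CPM in WT and 22.0 CPM in KO clones in media (adjusted p = 0.0098), and any part of such differences in the values below was not tested.

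Promoters of the catalytic pairs Psmb8 with Psmb5 and Psmb9 with Psmb6 are shown first because inducible and constitutive genes are contrasted throughout. The pair of Psmb10 and Psmb7 is not printed. The windows are the 250 bases before the start site in RefSeq (GRCm38.p6), read on the gene's strand. Psmb8 is the only inducible gene with a match to the gamma-activated site pattern, and Psmb9 is shown for its position head to head with Tap1. Psmb5 and Psmb6 are their constitutive partners. The windows of Psmb10, Psme1 and Psme2 held no match to any pattern searched. Capitals mark matches to TTCNNNGAA (the gamma-activated site pattern, in Psmb8), to CCAAT (in Psmb9, on the opposite strand) and to TGACNNNGC (the antioxidant response element core, in Psmb5 and Psmb6).
Psmb8, chr17:34197945-34198194, plus strand: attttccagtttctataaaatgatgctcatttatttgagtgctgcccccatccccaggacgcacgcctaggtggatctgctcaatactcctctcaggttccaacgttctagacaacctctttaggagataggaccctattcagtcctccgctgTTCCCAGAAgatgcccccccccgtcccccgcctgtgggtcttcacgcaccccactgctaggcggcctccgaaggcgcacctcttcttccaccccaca
Psmb9, chr17:34187331-34187580, minus strand: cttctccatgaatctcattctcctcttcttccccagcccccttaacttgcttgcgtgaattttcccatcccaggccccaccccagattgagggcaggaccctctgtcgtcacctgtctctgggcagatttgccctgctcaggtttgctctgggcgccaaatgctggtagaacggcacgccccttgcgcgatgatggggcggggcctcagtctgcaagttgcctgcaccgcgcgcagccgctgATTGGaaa
Psmb5, chr14:54617996-54618245, minus strand: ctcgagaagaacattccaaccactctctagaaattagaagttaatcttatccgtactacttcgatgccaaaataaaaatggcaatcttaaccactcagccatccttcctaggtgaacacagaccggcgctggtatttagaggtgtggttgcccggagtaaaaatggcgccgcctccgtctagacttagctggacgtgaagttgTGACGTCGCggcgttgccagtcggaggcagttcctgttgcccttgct
Psmb6, chr11:70525107-70525356, plus strand: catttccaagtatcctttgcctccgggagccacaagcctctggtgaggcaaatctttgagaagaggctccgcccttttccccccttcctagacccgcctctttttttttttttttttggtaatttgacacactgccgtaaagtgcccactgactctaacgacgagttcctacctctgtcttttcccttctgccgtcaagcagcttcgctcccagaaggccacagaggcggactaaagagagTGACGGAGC

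Both strands were searched for 5 patterns in the windows of the 41 members matched in RefSeq, and matches may overlap each other. TTCNNNGAA was found in 1 of the 5 immunoproteasome genes, starting 97 bases before the start of Psmb8, and in 0 of 25 constitutive 20S and 19S genes, against 8.13% of all 27025 genes with a window. A core of the interferon-stimulated response element was found in 0 of 5 and 2 of 25, against 3.46% of genes. The NF-kB consensus was found in 0 of 5 and 5 of 25, against 8.23% of genes. TGACNNNGC, the pattern bound by factors such as NFE2L1, was found in 0 of 5 and in 4 of 25 (Psmb5, Psmb6, Psmc6 and Psmd12), against 11.5% of genes. CCAAT was found in 1 of 5 and in 10 of 25, against 37.5% of genes. For Psmb8, Psmb9 and Psme1 the whole window lies inside the gene's span in GENCODE, which begins further upstream. Counts of matches and their distances therefore depend on the start site used. These letters describe the windows and are no evidence of binding.

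The inducible genes lie in groups. On chromosome 17, Psmb9 (34181987 to 34187764, minus strand) and the peptide transporter gene Tap1 (plus strand) start 226 bases apart in RefSeq and read away from each other. In GENCODE their start sites lie 211 bases apart and their spans overlap, and 5.79% of the exon length of Psmb9 overlaps Tap1. Psmb8 (34197721 to 34201454) and Tap2 lie beyond Tap1. Psme1 and Psme2 face each other on chromosome 14, separated by 5912 bases. The constitutive partner Psmb5 is also on chromosome 14 (54614119 to 54618022, minus strand), Psmb6 is on chromosome 11 (70525367 to 70527858, plus strand) and Psmb7 on chromosome 2 (38588036 to 38644087, minus strand). Psmb10 is on chromosome 8. Coordinates of genes are those of GENCODE on GRCm38.

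LPS with IFN-gamma raised all 5 immunoproteasome genes in WT clones, and the constitutive core and regulatory particle rose less. The median log2 fold change was 2.44 for the 5 inducible genes (1.85 to 3.11), 0.78 for the 14 constitutive core genes and 0.58 for the 17 genes of the 19S particle, against -0.01 for all genes tested. By edgeR's quasi-likelihood test with Benjamini-Hochberg adjustment over all genes, 34 of the 49 members rose (23.8% of all genes did), 1 fell (23.6% of all genes) and 14 were not called. In KO clones 41 rose (26.7% of all genes) and 2 fell (27.6% of all genes). Since RNA was taken from whole cultures, fewer responding cells and less RNA per cell cannot be told apart. The 34 that rose in WT clones all rose in KO clones, and 7 more were called higher in KO clones alone.

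Psmb9, the inducible subunit of the beta1 site, stood in WT media libraries at 17.2, 14.9 and 25.4 CPM (clones 1 to 3; CPM are counts put on a common scale of library size) and under stimulation at 148, 160 and 191 CPM. In KO clones 1A, 1B and 2 it stood at 17.0, 10.95 and 23.3 CPM in media and at 157, 157 and 199 CPM under stimulation. Every stimulated library was several times above every media library, with no overlap between conditions. The ranges of the genotypes overlapped in each condition, with KO 1B lowest in media and KO 2 highest under stimulation. It rose 8.66-fold in WT and 10.0-fold in KO clones (log2 fold change 3.11 ± 0.28 and 3.33 ± 0.28, SE, adjusted p = 1.2e-05 and 6.6e-06, n = 3 per group).

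Psmb10, the inducible subunit of the beta2 site, stood at 29.6, 33.8 and 46.7 CPM in WT media libraries and at 240, 190 and 219 CPM under stimulation. In KO clones the values were 36.3, 32.0 and 30.2 CPM in media and 174, 176 and 242 CPM under stimulation. Conditions did not overlap, and WT 1 and KO 2, lowest in media within their genotype, were highest under stimulation. The rise was 5.89-fold in WT (2.56 ± 0.19, adjusted p = 3.5e-06) and 6.01-fold in KO clones (2.59 ± 0.19, adjusted p = 2.5e-06).

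Psmb8, the inducible subunit of the beta5 site, had the highest level per length of the inducible catalytic genes in WT media libraries (57.0 CPM per kilobase). It stood there at 89.97, 68.3 and 120 CPM and reached 314, 309 and 384 CPM. In KO clones it went from 73.6, 69.6 and 82.1 CPM to 290, 298 and 354 CPM. Again no media library reached a stimulated one, and WT 3 held the highest value in each condition. The rise was 3.62-fold in WT (1.85 ± 0.19, adjusted p = 2.6e-05) and 4.18-fold in KO clones (2.06 ± 0.19, adjusted p = 1e-05), the smallest of the 5 on the log2 scale in both genotypes.

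Psme1, which encodes PA28 alpha, stood at 69.7, 75.4 and 112 CPM in WT media libraries and at 310, 296 and 400 CPM under stimulation. In KO clones it stood at 81.8, 88.8 and 81.4 CPM in media and at 376, 371 and 372 CPM under stimulation. The KO libraries were close together in each condition, the WT libraries spread more widely, and the conditions did not overlap (1.97 ± 0.18 in WT, adjusted p = 1.2e-05, and 2.15 ± 0.18 in KO, adjusted p = 5.2e-06). Psme2, which encodes PA28 beta, stood at 22.5, 21.1 and 29.4 CPM and then at 115, 146 and 137 CPM in WT clones, and at 23.2, 18.9 and 27.3 CPM and then at 132, 126 and 158 CPM in KO clones. It too separated the conditions completely (2.44 ± 0.18, adjusted p = 2.7e-06, and 2.58 ± 0.18, adjusted p = 1.4e-06). Psme2b on chromosome 11 is a near copy of Psme2, 99.4% identical over 794 aligned bases, so reads of either gene may have been counted for the other and its own values are uncertain. Its mean was 2.85 CPM in WT media libraries and 19.5 CPM under stimulation.

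**Figure D1:**
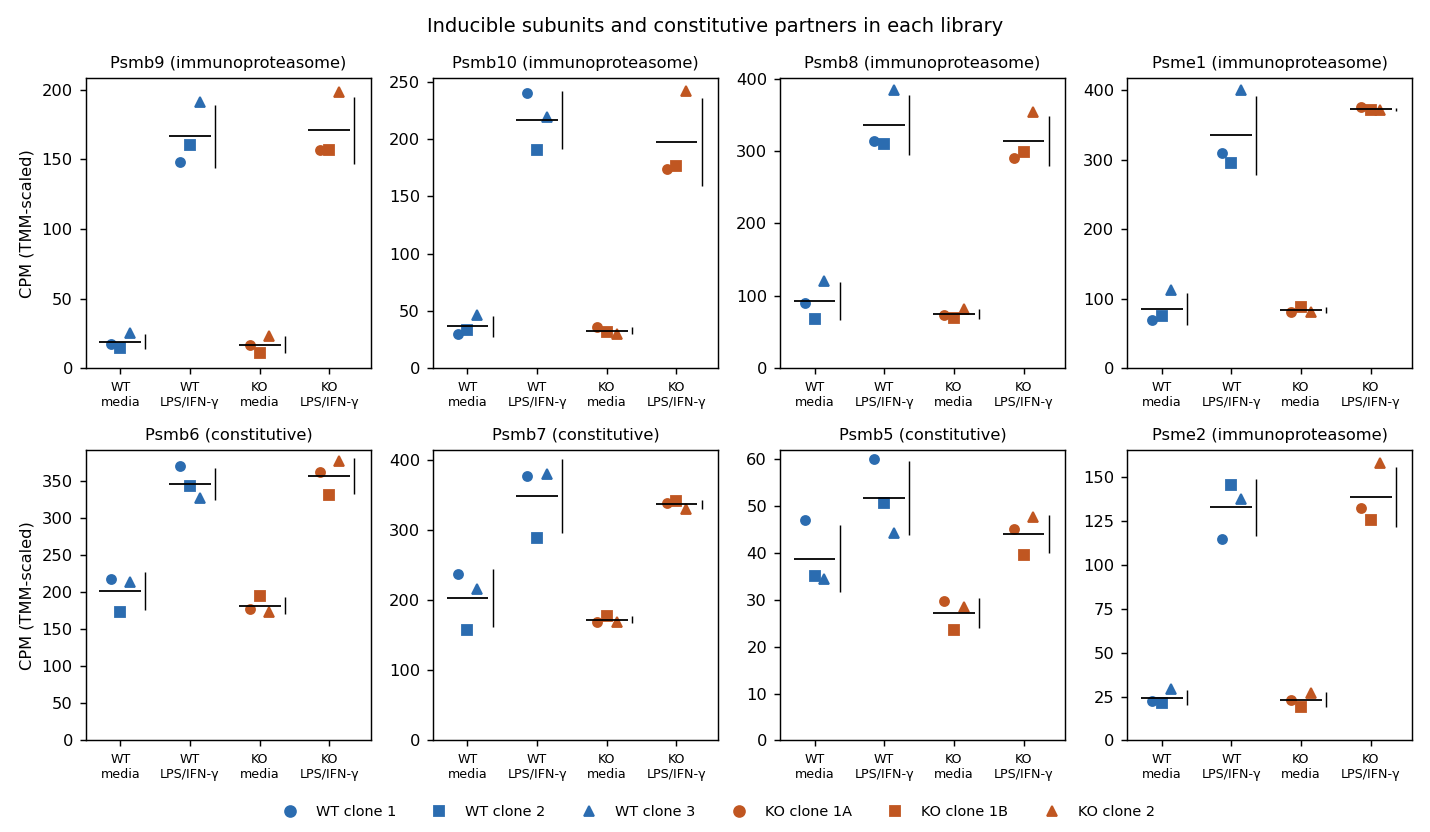
CPM of the 5 immunoproteasome genes and the 3 constitutive catalytic genes in each of the 12 libraries (points; marker shape gives the clone), by genotype and condition. Horizontal lines are means and vertical lines ± 1 SD over 3 libraries; stimulated and media libraries are far apart for the inducible genes, and for Psmb5 in WT clones they overlap.

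The constitutive partners moved by smaller factors. Psmb6, the beta1 subunit, went from 218, 173 and 214 CPM to 370, 343 and 327 CPM in WT clones 1 to 3 and from 177, 195 and 174 CPM to 363, 331 and 378 CPM in KO clones 1A, 1B and 2. Psmb7, the beta2 subunit, went from 238, 158 and 216 CPM to 378, 289 and 381 CPM in WT clones and from 170, 178 and 170 CPM to 339, 342 and 330 CPM in KO clones. For both genes every stimulated library was above every media library. Psmb6 rose by 0.78 ± 0.11 in WT and 0.97 ± 0.11 in KO clones, and Psmb7 by 0.78 ± 0.15 and 0.97 ± 0.15, on the log2 scale (adjusted p = 0.00023, 4e-05, 0.0016 and 0.00033).

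Psmb5, the beta5 subunit with the chymotrypsin-like activity that proteasome inhibitors used in medicine target, went from 47.0, 35.0 and 34.4 CPM to 60.05, 50.7 and 44.3 CPM in WT clones. In KO clones it went from 29.7, 23.5 and 28.4 CPM to 45.02, 39.5 and 47.6 CPM. It was higher under stimulation in 6 of 6 clones, but WT 1 in media lay above WT 3 under stimulation. In WT clones it was not called (0.41 ± 0.16, adjusted p = 0.052). It was called with each clone compared with itself (adjusted p = 0.0026, clone as a block). In KO clones it rose by 0.69 ± 0.16 (adjusted p = 0.0039).

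The balance between inducible and constitutive transcripts shifted at each catalytic site. Levels of different genes were compared as CPM per kilobase of the annotated principal transcript. The ratio of Psmb9 to Psmb6 was 0.047, 0.051 and 0.070 in WT clones 1 to 3 in media and 0.235, 0.275 and 0.345 under stimulation. In KO clones it was 0.056, 0.033 and 0.079 in media and 0.255, 0.280 and 0.310 under stimulation. Conditions did not overlap in either genotype, and Psmb9 remained below its partner in every library. The ratio of Psmb10 to Psmb7 had a mean of 0.164 ± 0.046 (SD, n = 3) in WT media libraries and 0.551 ± 0.038 under stimulation, and of 0.168 ± 0.018 and 0.519 ± 0.112 in KO clones.

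The ratio of Psmb8 to Psmb5 was 1.06, 1.08 and 1.93 in WT clones in media and 2.89, 3.37 and 4.79 under stimulation. It was 1.37, 1.63 and 1.59 in KO clones in media and 3.56, 4.17 and 4.10 under stimulation. On this scale the inducible beta5 transcript was the more abundant of its pair in all 12 libraries. The level of these ratios depends on the length used. With the union of all annotated exons, chosen after the data were seen, the mean ratio of Psmb8 to Psmb5 in media was below 1 (0.652 in WT and 0.738 in KO clones), and that of Psmb10 to Psmb7 under stimulation was above 1 (1.25 and 1.18).

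The change of a ratio within a clone does not depend on length. The ratio of Psmb9 to Psmb6 rose 5.06-fold, 5.42-fold and 4.94-fold in WT clones 1 to 3 and 4.53-fold, 8.43-fold and 3.93-fold in KO clones 1A, 1B and 2. The ratio of Psmb10 to Psmb7 rose between 2.66-fold and 5.09-fold in WT and between 2.40-fold and 4.12-fold in KO clones. The ratio of Psmb8 to Psmb5 rose 2.48-fold to 3.13-fold in WT and 2.55-fold to 2.60-fold in KO clones. The ratios of all 3 pairs rose in all 6 clones, and the ranges of the genotypes overlapped at each site. Within the PA28 ring, the ratio of Psme2 to Psme1 per kilobase was 0.334 ± 0.036 in WT media libraries and 0.465 ± 0.092 under stimulation, and it rose in 6 of 6 clones.

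**Figure D2:**
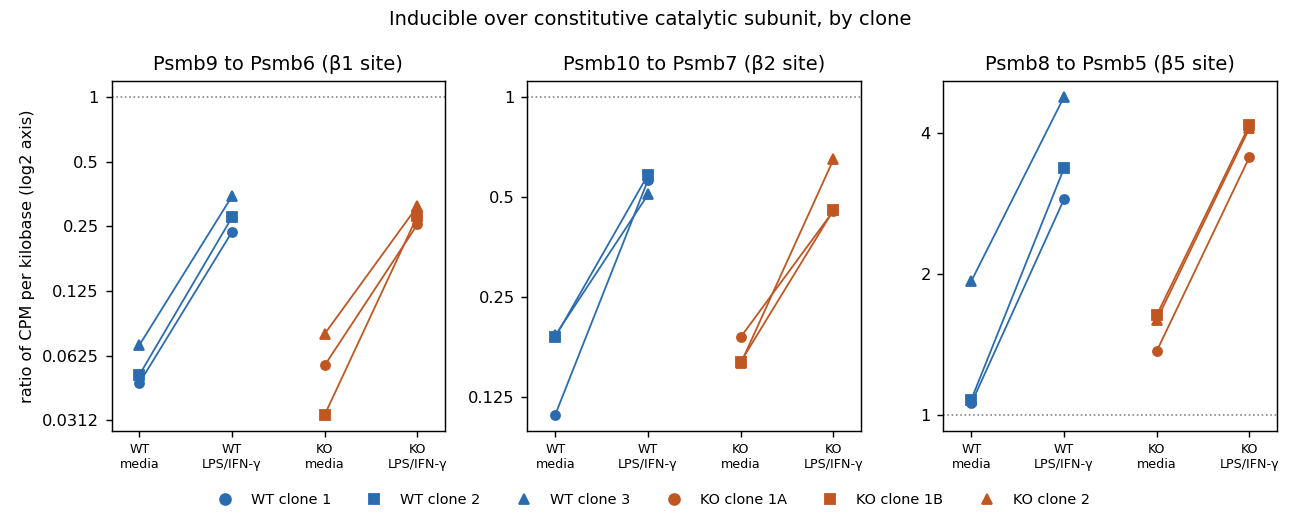
Ratio of inducible to constitutive catalytic subunit in CPM per kilobase (log2 axis; principal transcript length), with a line joining the media and stimulated library of each clone and a dotted line at 1. Every line rises, and KO and WT clones cover overlapping ranges.

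Among the 7 alpha ring genes, which form the outer rings of the core, 6 rose in WT and 7 in KO clones. The largest rise in WT clones was that of Psma5, from 90.9, 46.0 and 54.7 CPM to 174, 138 and 131 CPM (1.21 ± 0.21, adjusted p = 0.00094). In KO clones Psma6 rose from 149, 151 and 150 CPM to 420, 372 and 418 CPM (1.43 ± 0.12, adjusted p = 7.3e-06), and in WT clones by 1.05 ± 0.12. Stimulated and media libraries did not overlap for either gene in either genotype. Psma1 moved least of the ring (0.42 ± 0.18, adjusted p = 0.073, in WT clones and 0.49 ± 0.18, adjusted p = 0.037, in KO clones). Of the 4 noncatalytic beta genes, 3 rose in WT and 4 in KO clones, with Psmb4 highest (0.83 ± 0.19 and 1.07 ± 0.19). Psmb3 was not called in WT clones (0.46 ± 0.21, adjusted p = 0.094). Both Psma1 and Psmb3 were called in WT clones in the fit blocked by clone (adjusted p = 0.0023 and 0.004).

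In the base of the regulatory particle, 5 of the 6 ATPase genes (Psmc1 to Psmc6), whose products unfold substrates, rose in WT clones and 6 in KO clones. Psmc4 was highest in WT clones (0.70 ± 0.16, adjusted p = 0.005) and Psmc5 in KO clones (0.92 ± 0.13, adjusted p = 0.00017). Psmc3 was lowest in both (0.42 ± 0.18, adjusted p = 0.079, and 0.56 ± 0.18, adjusted p = 0.023), and passed in WT clones when blocked by clone (adjusted p = 0.0017). The 3 other base genes rose in both genotypes. They were Psmd1 (0.56 ± 0.19 and 0.91 ± 0.19) and Psmd2 (0.44 ± 0.16 and 0.79 ± 0.16), the scaffold subunits, and Psmd4 (0.46 ± 0.13 and 0.73 ± 0.13), a ubiquitin receptor. In WT clones Psmd1 and Psmd2 were near the threshold (adjusted p = 0.029 and 0.038). Both calls were lost with the compared groups alone (adjusted p = 0.12 and 0.14), library totals alone, KO 1A and 1B summed, and against a 1.5-fold change. They were also lost when any clone but WT 1 was left out, and were kept in the fit blocked by clone.

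Of the 8 lid genes, 7 rose in WT and 8 in KO clones. Psmd8 rose most in both genotypes, from 203, 227 and 228 CPM to 512, 462 and 466 CPM in WT clones (1.13 ± 0.11, adjusted p = 2.2e-05) and by 1.24 ± 0.11 in KO clones. Every stimulated library stood above every media library for Psmd8. Psmd13 rose least (0.44 ± 0.12, adjusted p = 0.011, and 0.74 ± 0.12, adjusted p = 0.00045). Psmd14, the deubiquitinase of the lid, rose by 0.72 ± 0.13 and 0.99 ± 0.13. Psmd3 was not called in WT clones (0.58 ± 0.22, adjusted p = 0.052) and was called in the fit blocked by clone (adjusted p = 0.0022).

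Over the 31 constitutive core and regulatory particle genes, 26 rose in WT and 31 in KO clones, 0 fell, and the medians were 0.61 and 0.92. DESeq2 called 28 and 31 of them higher, and neither tool called any lower at an adjusted p below 0.05. With clone as a block all 31 rose in both genotypes. Of all 12231 genes tested, DESeq2 called 3134 higher in WT and 3459 in KO clones, and the block 3649 and 3925. Scaled by library totals alone, which moved the median of all genes to -0.37 in WT and -0.39 in KO clones, all 31 still had estimates above 0 in both responses. Of the 31, 11 were then called in WT and 25 in KO clones, against 1586 and 1793 of all genes. The stimulated and media libraries did not overlap for 22 of the 31 genes in WT and for 31 in KO clones, with stimulation higher in each. Of all genes tested, 25.2% were separated in that direction in WT and 34.1% in KO clones. The summed level of the 31 genes was 5825 ± 1074 CPM in WT media libraries (range 4744 to 6891) and 9185 ± 1205 CPM under stimulation. It was 5346 ± 119 CPM (5212 to 5441) and 10153 ± 376 CPM in KO clones.

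**Figure D3:**
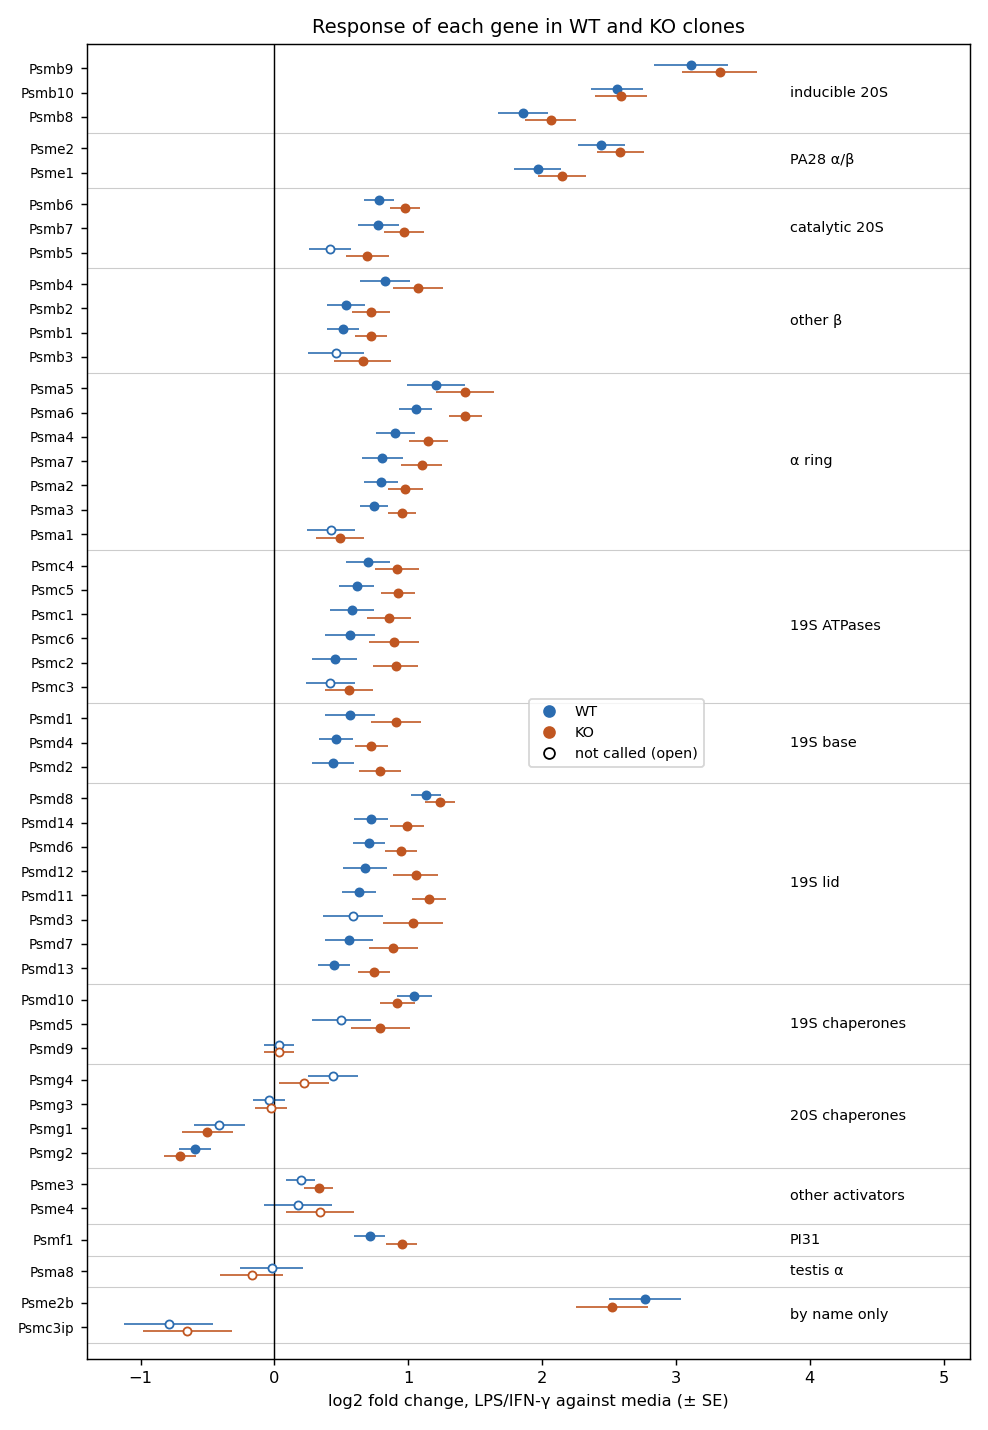
Log2 fold change (± SE) of LPS with IFN-gamma against media for each of the 49 genes, by role, in WT clones (blue) and KO clones (orange). Filled points were called at an adjusted p below 0.05 and open points were not; the immunoproteasome genes lie between 1.85 and 3.33, and the 31 constitutive core and regulatory particle genes between 0.41 and 1.43.

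Of the 4 assembly chaperones of the core, 1 fell in WT and 2 in KO clones (23.6% and 27.6% of all genes did), and 0 rose (23.8% and 26.7% of all genes did). Psmg2, which with Psmg1 guides assembly of the alpha ring, fell from 37.5, 33.0 and 40.4 CPM to 27.7, 23.1 and 22.7 CPM in WT clones and from 39.0, 35.4 and 42.8 CPM to 25.1, 23.8 and 22.9 CPM in KO clones. All stimulated libraries were below all media libraries (-0.59 ± 0.12, adjusted p = 0.0022, and -0.71 ± 0.12, adjusted p = 0.00061). Psmg1 went from 40.9, 37.3 and 56.6 CPM to 35.9, 30.01 and 35.5 CPM in WT clones, again with no overlap. It was called in KO clones (-0.50 ± 0.19, adjusted p = 0.043), and not in WT clones (-0.41 ± 0.19, adjusted p = 0.097). Psmg1 lost its call in KO clones with RLE size factors, with KO 1A and 1B summed and against a 1.5-fold change. In WT clones it was called in the fit blocked by clone (adjusted p = 0.011) and when scaled by library totals alone (-0.77, adjusted p = 0.008). That scaling moved the median of all genes in WT clones to -0.37 and called 5240 of 12231 genes lower, so its call of Psmg1 holds that shift too. Psmg3 did not pass in either genotype (-0.04 ± 0.12 and -0.02 ± 0.12). Psmg4 had estimates of 0.44 ± 0.19 (adjusted p = 0.073, and 0.012 in the fit blocked by clone) and 0.22 ± 0.19 (adjusted p = 0.33). The maturation factor Pomp, which is not a member by symbol and completes assembly of the core, rose by 1.02 ± 0.11 and 1.24 ± 0.11.

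Chaperones of the regulatory particle differed from one another. Psmd10, also known as gankyrin, rose from 29.3, 37.0 and 34.3 CPM to 67.6, 74.8 and 65.4 CPM in WT clones (1.05 ± 0.13, adjusted p = 0.00012) and by 0.92 ± 0.13 in KO clones. The conditions were fully separated. Psmd9 was not called (0.03 ± 0.11 in both genotypes), and 25.5% of its exon length overlaps the antisense gene Gm26745, whose reads cannot be told apart without strand. Psmd5 had an estimate of 0.50 ± 0.22 in WT clones (adjusted p = 0.082, and 0.0083 in the fit blocked by clone) and rose by 0.79 ± 0.22 in KO clones.

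Activators other than PA28 alpha and beta moved little. Psme3, which encodes the nuclear PA28 gamma, went from 151, 130 and 146 CPM to 170, 164 and 153 CPM in WT clones (0.20 ± 0.11, adjusted p = 0.16) and was called in KO clones (0.33 ± 0.11, adjusted p = 0.024), where library totals alone turned the estimate to -0.05. Psme4, which encodes PA200, was not called (0.18 ± 0.25 and 0.34 ± 0.25), and was called in KO clones in the fit blocked by clone (adjusted p = 0.0024). WT clones differed widely in Psme4, at 248, 122 and 181 CPM in media and at 275, 141 and 205 CPM under stimulation. Psme1 per kilobase was 1.45 ± 0.37 times Psme3 in WT media libraries and 4.98 ± 1.11 times under stimulation. With the union of all annotated exons as length, the means were 0.81 and 2.77, so the level depends on the length used.

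The inhibitor gene Psmf1, which encodes PI31, rose from 35.3, 35.0 and 34.3 CPM to 63.2, 46.5 and 61.6 CPM in WT clones (0.71 ± 0.12, adjusted p = 0.00053) and by 0.95 ± 0.12 in KO clones, with no overlap between conditions. Psma8, the alpha subunit of testis, was not called (-0.02 ± 0.24 and -0.17 ± 0.24), and it shares 80.2% of 524 aligned bases with Psma7. Psmc3ip, a meiotic recombination factor that only shares a symbol stem, had estimates of -0.79 ± 0.34 (adjusted p = 0.074) and -0.65 ± 0.33 (adjusted p = 0.12). It was called lower in both genotypes in the fit blocked by clone (adjusted p = 0.0053 and 0.019).

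Proteins that work with the proteasome but carry other symbols were read from lists. The ubiquitin receptor gene Adrm1 rose by 0.63 ± 0.16 in WT and 1.08 ± 0.16 in KO clones, and Sem1, a small lid subunit, by 0.48 ± 0.10 and 0.46 ± 0.10. Of 14 measured genes of associated factors, 5 rose and 3 fell in WT clones, and 7 rose and 3 fell in KO clones. Among all genes 23.8% rose and 23.6% fell in WT clones, and 26.7% rose and 27.6% fell in KO clones. Zfand5, a proteasome-activating protein, was highest in WT clones (0.90 ± 0.18) and the shuttle receptor Ubqln2 was lowest (-1.21 ± 0.29). The median of that list was 0.20 in WT clones, against 0.58 for the 49 members and -0.01 for all genes tested.

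Regulators and neighbours of the pathway rose more. Nfe2l1, the transcription factor known to drive proteasome subunit genes when proteasome activity is short, stood at 135 ± 22.2 CPM in WT media libraries and at 280 ± 29.5 CPM under stimulation (1.06 ± 0.14, adjusted p = 0.00013), and rose by 1.49 ± 0.14 in KO clones. Of 7 regulators listed, 6 rose in each genotype, with Irf1, itself an interferon-induced factor, highest in WT clones (5.62 ± 0.22) and Ngly1, which encodes the deglycosylase that processes NFE2L1, lowest and not called (0.21 ± 0.19). Nlrc5, the activator of MHC class I genes, rose by 3.56 ± 0.15 and 3.82 ± 0.15. Tap1, which starts beside Psmb9, was highest of 7 class I processing genes (4.36 ± 0.24 and 4.56 ± 0.24), and the chaperone gene Pdia3 was lowest (0.26 ± 0.12, adjusted p = 0.088, in WT clones). All 6 genes of the ubiquitin-like modifiers ISG15 and FAT10 and their enzymes rose in both genotypes, with Ube2l6 lowest in WT clones (1.89 ± 0.33) and Ubd, which encodes FAT10, highest. Ubd had 0 counts in all WT media libraries and 147 counts summed over the 3 stimulated ones, so that no fitted fold is given.

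Genes of the KO clones were next compared with WT clones in the same condition, the question posed by the deletion. In media 0 of the 49 members were called higher (0.352% of all genes) and 0 lower (0.858%). Of the 49, only Psmb5 had an unadjusted p below 0.05 by edgeR, against 14.1% of all genes. DESeq2 called 0 of the 49, and of 12231 genes tested it called 169 higher and 453 lower. The Psmb5 values of 29.7, 23.5 and 28.4 CPM in KO clones were all below the 47.0, 35.0 and 34.4 CPM of WT clones, with a log2 difference of -0.51 ± 0.16 (adjusted p = 0.17). For the 5 immunoproteasome genes the differences in media lay between -0.31 and -0.03, each with an SE of 0.17 to 0.27, and all overlapped between genotypes.

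Under stimulation 0 members were called higher (1.13% of all genes) and 0 lower (3.51%) by edgeR, with 3 of 49 at an unadjusted p below 0.05, against 21.2% of all genes. These were Psma6, Psmd11 and Psmd14. Psmd11, a lid subunit, stood at 222, 185 and 185 CPM in WT clones and at 254, 250 and 264 CPM in KO clones, without overlap (0.37 ± 0.13, adjusted p = 0.12). It was called when WT 1 was left out (adjusted p = 0.03), where 106 of 12301 genes were called higher and 296 lower. Psma6 stood at 330, 297 and 314 CPM against 420, 372 and 418 CPM, also without overlap (0.36 ± 0.12, adjusted p = 0.12). DESeq2 called Psma6 alone of the members (adjusted p = 0.048), and of 12231 genes tested it called 384 higher and 793 lower. In all, 6 of the 49 members had KO libraries fully above WT libraries under stimulation, as had 11.3% of all genes tested, so the members' share was near the background. The immunoproteasome genes differed by -0.13 to 0.15, with overlap in every case.

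Whether the response itself differed was asked with the interaction, the KO response minus the WT response. It called 0 of 12231 genes by edgeR (0% higher and 0% lower), so 0 members, of which 1 had an unadjusted p below 0.05 (611 of all genes, or 5%). DESeq2 called 20 of all genes, 13 higher and 7 lower, and 0 members, and the fit blocked by clone called 20 higher and 20 lower and 0 members. The member was Psmd11, whose change was 0.53, 0.69 and 0.70 in WT clones and 1.12, 1.05 and 1.31 in KO clones on the log2 scale (interaction 0.52 ± 0.18, adjusted p = 0.79). The fit blocked by clone gave Psmd11 an interaction of 0.52 ± 0.12 (adjusted p = 0.12). Estimates were above 0 for all 31 constitutive core and regulatory particle genes, with a median of 0.26, and for 5856 of 12231 genes in all. These genes were read in the same 12 libraries and are not independent, and none was called. The median change of the 31 genes was 0.60, 0.81 and 0.53 in WT clones 1 to 3 and 0.93, 0.83 and 1.01 in KO clones 1A, 1B and 2. WT 2 and KO 1B lay closest to each other. For the 5 inducible genes the interaction was 0.03 to 0.21, with an SE of 0.24 to 0.37. In the fit blocked by clone it was -0.005 to 0.23, with an SE of 0.12 to 0.25, and 0 were called. Differences of this size were not detectable at the spread of either fit.

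**Figure D4:**
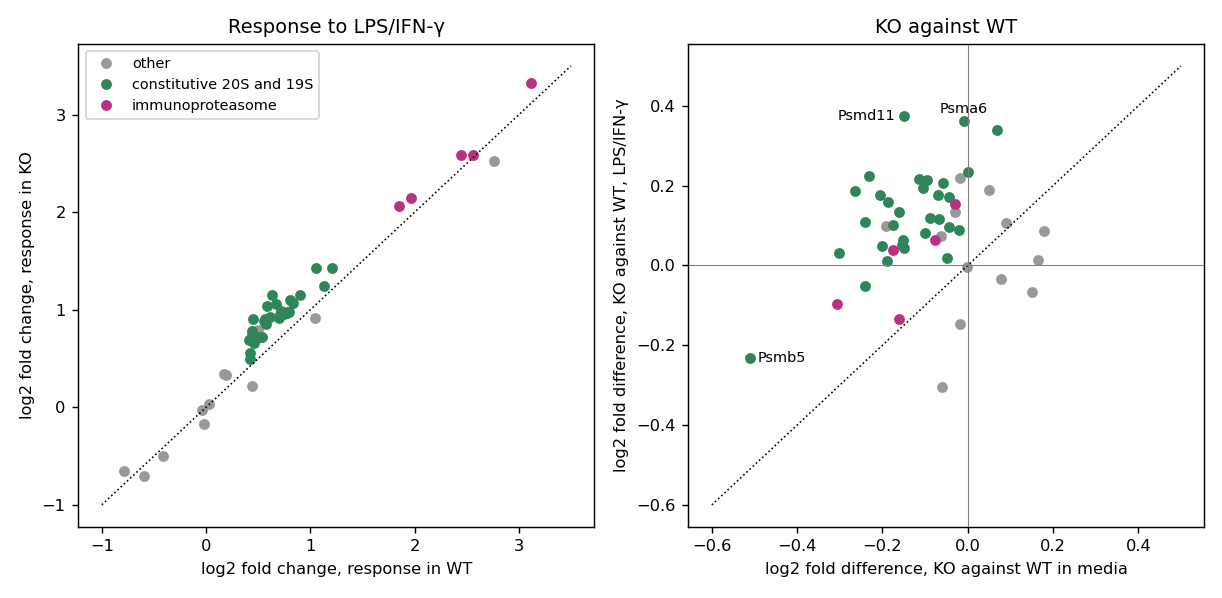
Left, log2 fold change of LPS with IFN-gamma against media in KO clones (vertical) against WT clones (horizontal) for the 49 genes, which share no library between the axes. Right, log2 difference of KO against WT clones under stimulation (vertical) against media (horizontal); dotted lines mark equal values, 0 members were called in either comparison on the right, and the axes of each panel hold point estimates without their SE.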

How the data were processed

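The 12 libraries of 4 groups of 3 were read from 1 deposited table, in which the authors gave counts as whole numbers per Ensembl gene. The submitters' processing notes name the builds mm10 and GRCm38, and DESeq2. Which aligner and counting tool were used, and whether counting used strand, is not given in the sources used here. GENCODE on GRCm38 gave symbols, positions and biotypes, and RefSeq tables gave promoter windows. The members and gene lists were chosen with earlier results of these data known.

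The test was edgeR 4.0.16 (R 4.3.3) on the deposited counts, with filterByExpr (12231 of 12483 genes kept), TMM scaling and a robust quasi-likelihood fit of 4 group means to all libraries (8 residual degrees of freedom). A gene was called where its p, adjusted by Benjamini-Hochberg over all genes tested, was below 0.05. Each SE was derived from the log2 fold change and its F statistic. CPM were computed on TMM-scaled library sizes, with means ± SD over 3 libraries where so given. P-values measure the spread between libraries within groups, pooled over the 4 groups, with KO 1A and 1B counted as separate clones. With KO 1A and 1B summed, KO against WT in media called 3 of all genes higher and 13 lower, against 43 and 105 in the main fit. Under stimulation the summed fit called 12 higher and 61 lower, against 138 and 429. The steps were tested on simulated data.

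Each clone has 1 library per condition in the labels. Correlating the deviations of its 2 libraries from the group means gave 0.622 (WT 1), 0.683 (WT 2), 0.618 (WT 3), 0.373 (KO 1A), 0.34 (KO 1B) and 0.541 (KO 2), all above 0.1, and the clone was taken to pair its libraries. Against other clones of the same genotype the highest such correlation reached 0.346 (KO 1A) and 0.22 (KO 1B) and lay below 0 for the remaining 4. A fit with clone as a block was an alternative for the responses and the interaction.

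Further alternatives were library totals alone, RLE size factors, no filter or a stricter one (1 CPM in 3 libraries), DESeq2 1.42.0, a fit of the compared groups alone, KO 1A and 1B summed, a test against a 1.5-fold change, and leaving out each clone. Members named in the text are the immunoproteasome genes and their partners, the highest and lowest of each role in each response, and the highest and lowest of each list of other genes. Psmb3 in WT clones, Psmd3, Psmd5, Psmd14, Itgam, Nlrc5 and the members nearest to a call between genotypes were added after their values were seen. Some genes of the other lists are not reported here.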

Additional observations from a re-analysis of the deposited data

How the results depend on the processing

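All 5 immunoproteasome genes were called higher in both responses under every alternative run. The count of members called higher in WT clones, 34, became 19 with library totals alone and 11 against a 1.5-fold change, and ran from 29 to 37 with 1 clone left out. That of constitutive core and regulatory particle genes, 26, became 11 with library totals alone, 17 with the compared groups alone and 4 against 1.5-fold, and ran from 21 to 29. In KO clones the count of 41 became 33 with library totals alone and 26 against 1.5-fold (36 to 41 with 1 clone left out). That of 31 became 25 and 18 (28 to 31). With KO 1A and 1B summed, Psma1, Psmb3, Psmc3 and Psme3 lost their call in KO clones (adjusted p = 0.13, 0.088, 0.092 and 0.067). Members called lower in WT clones, 1, became 5 with library totals, 3 with clone as a block and 0 against 1.5-fold (1 to 2 with 1 clone left out). In KO clones the 2 became 5 with library totals, 1 with RLE size factors, 1 with KO 1A and 1B summed and 0 against 1.5-fold (1 to 3 with 1 clone left out). Calls over all 12231 genes moved too. In WT clones the 2913 higher became 1586 with library totals alone and 1253 against 1.5-fold, and the 2883 lower became 5240 and 1209. In KO clones the 3260 higher became 1793 and 1506, and the 3378 lower became 5520 and 1692. KO against WT under stimulation had 1 member called higher, a constitutive one, by DESeq2 (384 of all 12231 genes), and 0 to 1 with 1 clone left out. Psme3 in KO clones turned to -0.0479 with library totals alone. The block changed calls of responses only in the members given with their blocked value, and no call of the interaction. No paired analysis was possible for KO against WT because the genotypes share no clone. The cause of these shifts was not tested, except that a fold threshold asks for larger changes and library totals lower the median of all genes. With 3 clones per group, the SE of KO against WT in media was 0.16 at the median of members, which limits what differences could be called.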
